A study of Mus musculus with 7 samples.

Results

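A set of 8 genes of Schwann cells and their myelin (Pmp22, Mbp, Prx, Mag, Sox10, S100b, Cnp and Egr2) was followed in RNA from mouse gastrocnemius, the fast calf muscle. They were taken by symbol from a table of 21487 genes, and all 8 members were present and tested among 13409 genes that passed a filter on low counts. The knockout group (4 libraries, knockout 1 to 4) lacked DJ-1, the product of Park7, in skeletal muscle, and the labels name it MPARK7KO. The control group (3 libraries, control 1 to 3) carried the floxed gene and is labelled WT. Both groups had immobilization-induced muscle atrophy and no muscle without immobilization is analysed here, so immobilization itself was not compared. The sources used here do not give the Cre line, the age and sex of the mice or whether each library is a separate animal, and p-values therefore measure the spread between these samples, which may be technical.

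A limb muscle receives myelinated motor and sensory axons. Schwann cells wrap these axons in compact myelin, a stack of their own membrane held together by proteins such as PMP22 and myelin basic protein. The transcription factor SOX10 defines the lineage and acts with EGR2 (KROX20) to switch on the myelin genes. Other Schwann cells ensheathe small axons without making myelin or cap the neuromuscular junction. The neurons themselves lie in the spinal cord and ganglia, so muscle RNA holds Schwann cell transcripts but little RNA of neurons. In bulk RNA, fewer Schwann cells and less RNA per cell cannot be told apart.

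Levels are in CPM, each count scaled per 1e6 counts and set on library sizes corrected by the trimmed mean of M-values, and library totals ran from 24458339 to 26389008 counts. Park7 checked the labels, with 37.3 ± 2.94 CPM in knockouts (SD, n = 4) and 245 ± 18.8 CPM in controls (SD, n = 3). Muscle fibre markers summed to 127123 to 196041 CPM in knockouts and 105079 to 131021 CPM in controls, so the labelled tissue's own genes were abundant in every library. The members were rare in this tissue, taking 0.00427% to 0.00516% of the counts in knockouts and 0.00562% to 0.0193% in controls. Their summed CPM was 48.1, 42.4, 48.3 and 44.4 in knockout 1 to 4, against 190 in control 1, 56.7 in control 2 and 67.2 in control 3. Control 1 therefore stood apart, and calls that rest on it are given with and without it. The amount of nerve in each piece of muscle was not measured, and its part in the results was not tested.

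All 8 members were highest in control 1, whereas 17% of all tested genes were highest there. Of the 8, 6 were at least 2-fold above each other library in control 1, against 0.865% of all tested genes. All 8 also had a negative log2 fold change for knockout minus control, with a median of -1.20 beside 0.01 over all tested genes. Only Pmp22 passed the test, at an adjusted p under 0.05, and it fell. Over all tested genes 8.23% were called lower and 6.67% higher (14.9% in all), so 1 call among 8 members is a share near the background. With upper quartile scaling 33.2% of all calls were higher, against 44.8% with the scaling used. At an unadjusted p under 0.05, 5 of the 8 members differed, where 31.8% of all genes did. Without control 1 the median of the members was -0.38, and again 1 member, Pmp22, was called lower, where 3.89% of all genes were and 2.23% were called higher (6.12% in all).

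**Figure D1:**
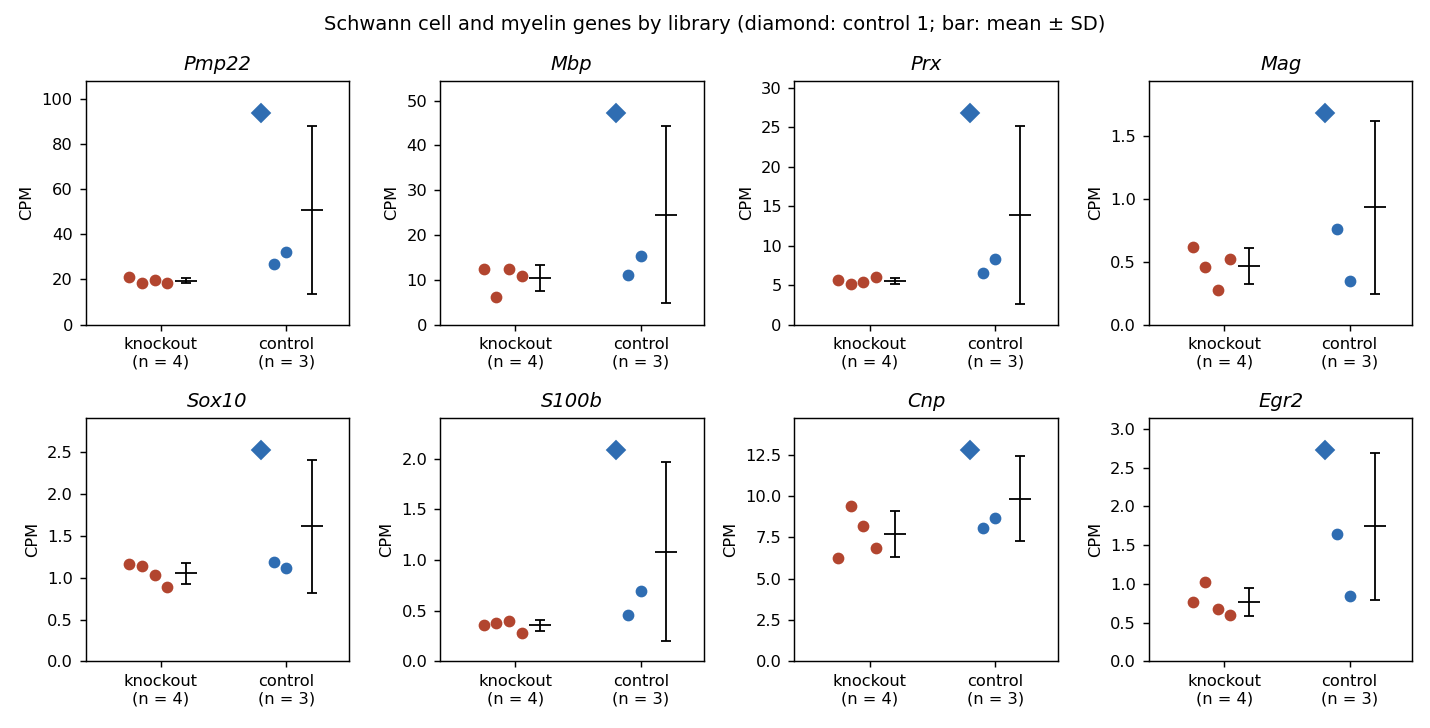
Level in CPM (vertical axis, linear) of each of the 8 genes in every library, with knockouts in red and controls in blue; the diamond is control 1 and the bars are mean ± SD (n = 4 knockouts, n = 3 controls). Control 1 is the highest library in all 8 panels, and the 4 knockouts of Pmp22 lie between 18.3 and 20.9 CPM.

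Pmp22 encodes a membrane protein of compact myelin whose duplication causes the commonest inherited demyelinating neuropathy in humans. The gene is on the plus strand of chromosome 11 (63128982 to 63159547, GRCm38). It read 20.9, 18.6, 19.8 and 18.3 CPM in knockout 1 to 4, from 455 to 577 counts. The controls read 93.7, 26.8 and 32.0 CPM, from 699 to 2331 counts. Every knockout lay below every control, and the knockouts spanned only 1.14-fold. Pmp22 thus fell, with a log2 fold change of -1.39 and an SE of 0.372 (adjusted p = 0.0386 by edgeR's quasi-likelihood test). Without control 1 it was -0.60 (SE 0.111, adjusted p = 0.0262), so the call stood in both fits but the size of the fall moved by more than 1.5 times. The call ended without any 1 knockout (adjusted p = 0.0613 to 0.0873), with a robust prior (0.0857) and when replicate numbers were blocked (0.0803). Pmp22 is also made by fibroblasts, and the levels of fibroblast markers are given below.

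Prx encodes periaxin, the scaffold of the outer Schwann cell membrane that holds the cytoplasmic Cajal bands in place. On the plus strand of chromosome 7 (27499324 to 27520214), its levels were 5.66, 5.21, 5.42 and 6.09 CPM in knockouts, against 26.9, 6.59 and 8.27 CPM in controls. Every knockout again lay below every control, and the knockouts spanned 1.17-fold. The log2 fold change of -1.31 (SE 0.423) did not pass (adjusted p = 0.0689), and without control 1 it was -0.42 (SE 0.148, adjusted p = 0.134). Among the alternatives run it passed only without control 2 (adjusted p = 0.0374). An antisense gene, Gm15541, overlaps its exons, and without a stated strand reads of the pair cannot be told apart.

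Mbp encodes myelin basic protein, which joins the cytoplasmic faces of the myelin membrane. Located on the plus strand of chromosome 18 (82475146 to 82585637), it read 12.4, 6.13, 12.5 and 10.8 CPM in knockouts, against 47.3, 11.2 and 15.3 CPM in controls. The groups overlapped, since control 2 lay below knockout 1 and knockout 3. Knockout 2 was the lowest of the 7 libraries. Its log2 fold change was -1.23 (SE 0.457, adjusted p = 0.103) and became -0.35 (SE 0.273, adjusted p = 0.478) without control 1.

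Mag encodes myelin-associated glycoprotein, an adhesion protein of the innermost wrap that faces the axon. Mag is found on the minus strand of chromosome 7 (30899176 to 30914873). It had 17, 12, 7 and 13 counts in knockouts, against 42, 20 and 9 counts in controls, too few for a precise level. Its levels were 0.617, 0.457, 0.279 and 0.524 CPM in knockouts, against 1.69, 0.767 and 0.348 CPM in controls. Control 3 lay inside the range of the knockouts. The log2 fold change of -0.97 (SE 0.507, adjusted p = 0.226) became -0.25 (SE 0.446, adjusted p = 0.774) without control 1.

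Cnp encodes an enzyme of non-compact myelin, 2',3'-cyclic nucleotide phosphodiesterase, that many other cells also make at a low level. It lies on the plus strand of chromosome 11 (100574904 to 100591729), where its exons overlap those of Dnajc7 on the other strand. Its levels were 6.28, 9.40, 8.21 and 6.89 CPM in knockouts, against 12.8, 8.05 and 8.69 CPM in controls. Control 2 and control 3 lay inside the range of the knockouts. Cnp had the smallest excess in control 1 of the 8 members, 1.53 times the mean of the other two controls, whereas S100b, Prx and Mbp had 3.62, 3.61 and 3.58 times. Cnp had a log2 difference of -0.36 (SE 0.196, adjusted p = 0.247), and -0.13 without control 1 (adjusted p = 0.699).

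Sox10 encodes the transcription factor that all Schwann cells need, myelinating or not. From the minus strand of chromosome 15 (79154908 to 79165240), it read 1.16, 1.14, 1.04 and 0.887 CPM in knockouts, against 2.53, 1.19 and 1.12 CPM in controls. Control 3 lay inside the range of the knockouts and control 2 just above it. For Sox10 the log2 fold change was -0.60 (SE 0.315, adjusted p = 0.227), and -0.13 (SE 0.237, adjusted p = 0.774) without control 1. Its excess in control 1, 2.19 times the mean of the other two controls, was smaller than that of Pmp22 (3.19 times).

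Egr2 encodes the zinc finger factor that starts and maintains myelination, and activated immune cells also use it. Its locus is on the plus strand of chromosome 10 (67535475 to 67542188). Its levels were 0.762, 1.03, 0.677 and 0.605 CPM in knockouts, against 2.73, 1.65 and 0.850 CPM in controls. Control 3 lay below knockout 2, so the groups overlapped. For Egr2 the log2 difference was -1.17 (SE 0.385, adjusted p = 0.0728), and -0.70 (SE 0.346, adjusted p = 0.261) without control 1. DESeq2 called it (adjusted p = 0.0441), and so did the fit without control 3 (0.0339). In 6 of 7 libraries its expected count was not whole, as happens where reads map to more than 1 place.

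S100b encodes a calcium-binding protein that marks Schwann cells, including those at the neuromuscular junction, and that adipocytes also make. S100b sits on the plus strand of chromosome 10 (76253853 to 76261159). It had 10, 10, 10 and 7 counts in knockouts, against 52, 12 and 18 counts in controls. Its levels were 0.363, 0.381, 0.398 and 0.282 CPM in knockouts, against 2.09, 0.460 and 0.695 CPM in controls. Every knockout lay below every control, at low depth. Its log2 difference, -1.58 (SE 0.539), had an adjusted p of 0.0816 and was -0.70 (SE 0.361, adjusted p = 0.280) without control 1. DESeq2 called it (adjusted p = 0.0410), and so did the fit without control 2 (0.0466).

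In 3 of the 8 members, Pmp22, Prx and S100b, every knockout lay below every control, where 14.8% of all tested genes did. No member had every knockout above every control, where 14% of all genes did. The same 3 members had every knockout below control 2 and control 3, where 17.6% of all genes did. The knockout means of all 8 stood below the mean of control 2 and control 3. They ran from 0.615 times that mean for Egr2 and 0.616 for S100b to 0.915 for Sox10 and 0.919 for Cnp. The share of all tested genes with such a lower mean was not counted. In the fit without control 1 only Pmp22 was called among the members, and the median log2 fold change over all tested genes was 0.002.

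**Figure D2:**
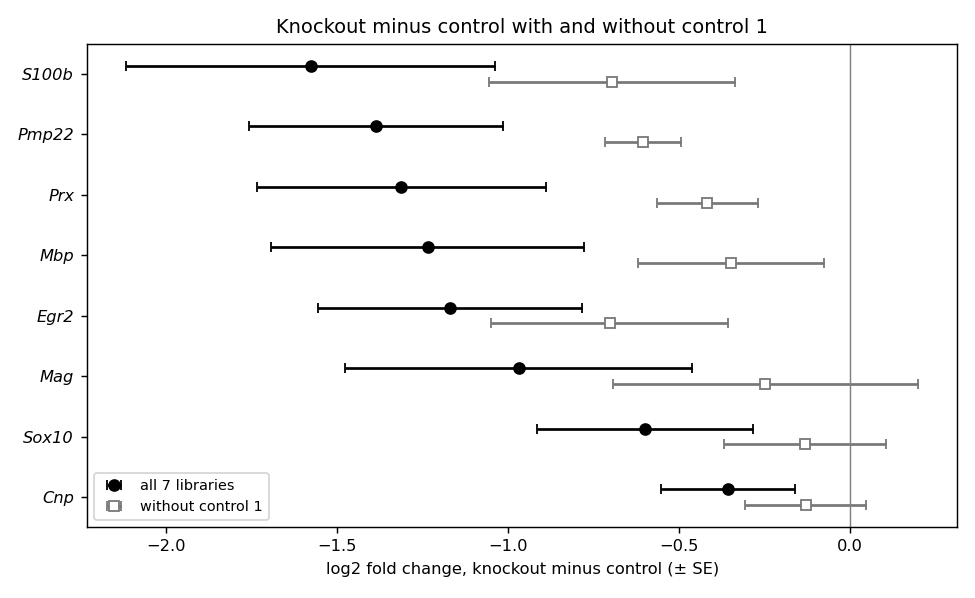
Log2 fold change, knockout minus control, with its standard error (horizontal axis), for the 8 genes ordered by size; filled circles use all 7 libraries and open squares leave out control 1. Every value is negative, and every one is nearer 0 without control 1, as for Mbp at -1.23 and -0.35.

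Per kilobase of annotated exon, Pmp22 was the most abundant member, at 8.26 CPM per kb in knockouts and 21.6 CPM per kb in controls (means). In the knockouts Cnp followed at 2.11 CPM per kb, then Mbp and Prx, with overlapping ranges of 0.723 to 1.47 and 0.934 to 1.09 CPM per kb. Sox10 averaged 0.346, S100b 0.240 and Egr2 0.226 CPM per kb in knockouts, and the ranges of S100b and Egr2 overlapped. Mag was the least abundant, at 0.115 CPM per kb in knockouts and 0.229 in controls. In the controls Mbp (2.90), Cnp (2.71) and Prx (2.49 CPM per kb) had overlapping ranges. These lengths are the union of all annotated exons, which for Mbp reaches 8.47 kb and understates its level if short isoforms prevail.

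Likeness between profiles was measured as the root mean square difference, over the 7 libraries, between log2 CPM centred on each gene's own mean. Among the members the nearest pair was Pmp22 and Prx, which differed by 0.126 log2 units, followed by Pmp22 and S100b at 0.127. Mbp and Cnp were farthest apart, at 0.682. Among 11797 other tested genes with a mean log2 CPM above 0, Prx was nearest to Scd2, a fatty acid desaturase (0.117), then to Pmp22 and to Drp2 (0.130). Drp2 encodes a partner of periaxin at the Schwann cell membrane. Pmp22 was nearest to Drp2 (0.119), Prx, Irf7 (0.173), Scd2 and Ifit3. Among the nearest to Mbp were Hdac9 (0.232), Mal (0.266), Irf7 (0.268) and Prx. Mag was nearest to Cdo1 (0.252), Nfasc (0.268), Bst2 (0.300), Shc4 (0.307) and Cmpk2 (0.310).

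These neighbours were thus of more than 1 kind. Mal, Drp2 and Nfasc are Schwann cell or axon-contact genes, while Irf7, Igtp, Ifit3, Bst2 and Cmpk2 are induced by interferon. Ifit3 read 2.32, 1.67, 1.59 and 1.97 CPM in knockouts, against 11.3, 2.91 and 2.78 CPM in controls. Igtp read 7.91, 7.04, 8.21 and 6.57 CPM in knockouts, against 31.7, 8.59 and 8.50 CPM in controls. Both interferon genes were high in control 1, as the myelin genes were. They were picked for profiles near those of Pmp22 and Prx, so this likeness follows from the choice. The adjusted p was 0.0597 for Ifit3 and 0.107 for Igtp. These genes were grouped after their values were seen, and their part in the members' values was not tested.

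The promoters of 4 members are shown because the levels of Prx and Pmp22 ran together across libraries whereas those of Mag and Cnp departed from them. Each is the RefSeq window from 250 bases before to 50 after the most upstream start in the table, on GRCm38.p6, in the direction of the gene. Capitals mark the letters ACAAAG, the core of a SOX site, and GCGNGGGNG, an EGR-type site, on either strand; no match of one overlaps a match of the other in these windows.
Prx (chr7:27499074-27499373, plus strand): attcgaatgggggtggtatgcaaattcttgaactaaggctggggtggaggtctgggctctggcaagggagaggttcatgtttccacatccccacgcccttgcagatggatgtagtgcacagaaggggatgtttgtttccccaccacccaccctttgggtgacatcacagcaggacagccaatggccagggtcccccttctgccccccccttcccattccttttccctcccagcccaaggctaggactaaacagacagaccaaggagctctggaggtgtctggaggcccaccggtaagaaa
Pmp22 (chr11:63128732-63129031, plus strand): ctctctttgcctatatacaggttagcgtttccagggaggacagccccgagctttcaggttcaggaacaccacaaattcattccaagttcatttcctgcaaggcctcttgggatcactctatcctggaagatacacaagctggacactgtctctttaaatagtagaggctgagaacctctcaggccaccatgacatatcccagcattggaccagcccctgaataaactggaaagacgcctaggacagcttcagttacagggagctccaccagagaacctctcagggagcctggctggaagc
Mag (chr7:30914873-30915172, minus strand): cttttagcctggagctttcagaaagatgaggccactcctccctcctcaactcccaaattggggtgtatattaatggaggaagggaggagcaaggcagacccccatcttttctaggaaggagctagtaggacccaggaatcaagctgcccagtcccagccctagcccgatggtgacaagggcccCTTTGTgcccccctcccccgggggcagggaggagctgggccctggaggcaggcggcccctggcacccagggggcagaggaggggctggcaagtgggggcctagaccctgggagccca
Cnp (chr11:100574689-100574988, plus strand): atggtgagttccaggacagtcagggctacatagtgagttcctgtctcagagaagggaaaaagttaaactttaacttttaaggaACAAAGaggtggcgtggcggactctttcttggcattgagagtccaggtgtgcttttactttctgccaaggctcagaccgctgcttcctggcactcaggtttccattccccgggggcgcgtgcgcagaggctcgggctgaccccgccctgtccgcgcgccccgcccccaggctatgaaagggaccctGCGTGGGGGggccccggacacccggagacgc
Of the 8 members 6 matched the promoter table. The windows of Prx and Pmp22 hold neither motif, that of Mag holds the SOX-type letters on the opposite strand (bases 184 to 189), and that of Cnp holds both (bases 84 to 89 and 270 to 278). Of the other two matched windows, which are not printed, that of Egr2 holds 4 EGR-type matches, some overlapping each other, and that of S100b holds neither motif. Of all 32851 windows 18.7% hold the SOX-type letters and 12.3% the EGR-type letters. A match is a string of letters and not a binding site, and Pmp22 has 4 starts in the table, of which the first is shown.

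The rest of the myelin programme was read from lists of companion genes. Of 48 tested genes in 5 Schwann cell lists, 4 fell and 1 rose in the knockout, where 8.23% of all tested genes fell and 6.67% rose, so the share of calls was not above the background. Of the 48, 25 (52.1%) were highest in control 1, where 17% of all genes were, and 12 were at least 2-fold above each other library there, where 0.865% of all genes were. The share highest in control 1 was 11 of 11 in compact myelin, 4 of 7 in lipid enzymes and 5 of 9 in periaxonal and node genes, against 3 of 13 in transcription and axon signalling and 3 of 9 in non-myelinating and repair genes; 1 gene stands in 2 of the lists.

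**Figure D3:**
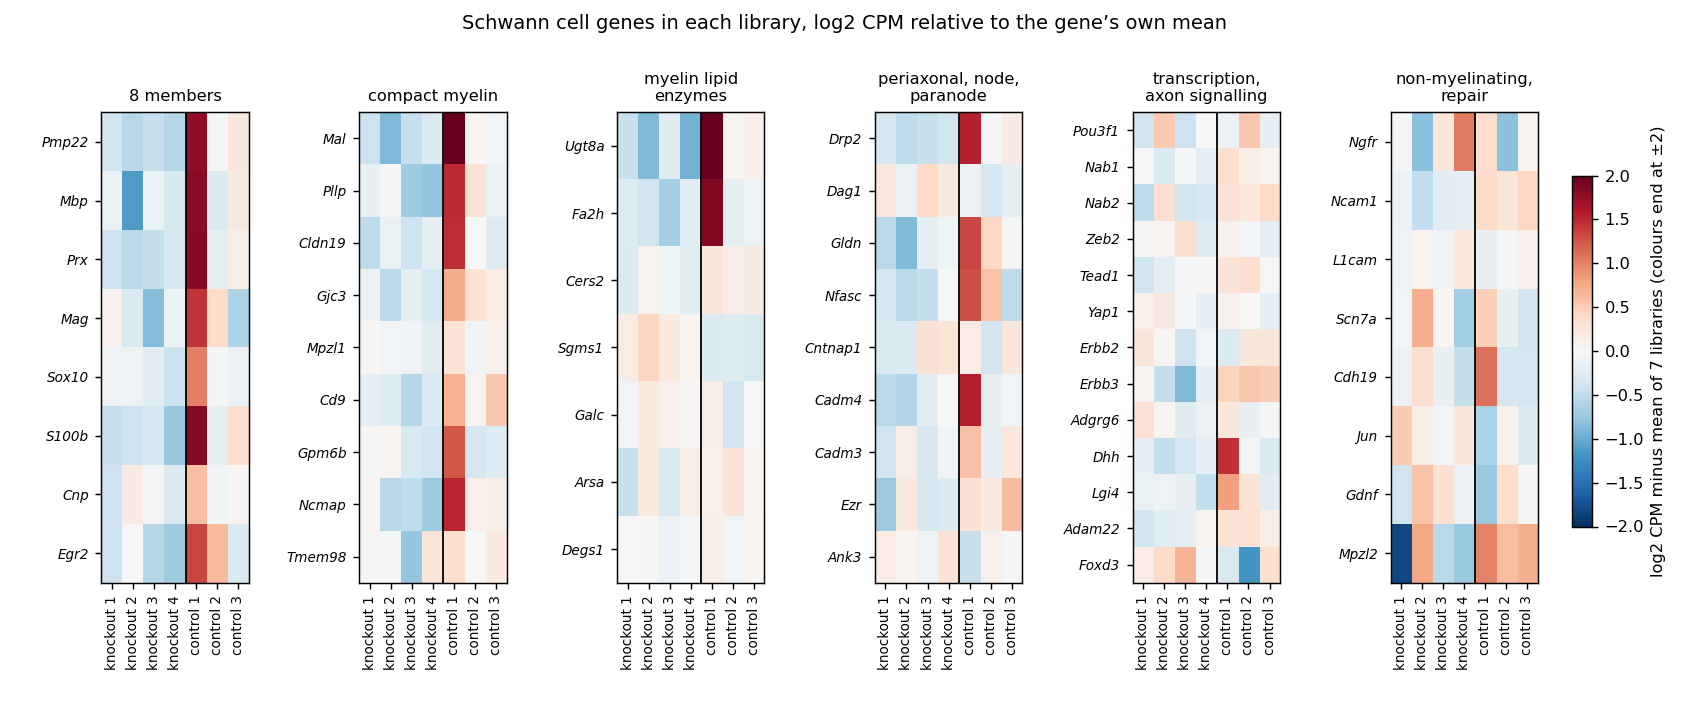
Log2 CPM of the tested Schwann cell genes reported here in each library, relative to the gene's own mean over 7 libraries (red higher, blue lower, colours end at ±2); knockouts stand left of the black line and controls right of it. The column of control 1 is red for all 8 members and for every compact myelin gene drawn, and mixed in the list of transcription and axon signalling.

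Among 11 tested genes of compact myelin and the myelin membrane, 2 fell and 0 rose, with a median log2 fold change of -0.78. All 11 were highest in control 1. Cd9, a tetraspanin of many cell types, fell by 0.78 log2 units (adjusted p = 0.0163), and was no longer called when control 1 (0.0580) or control 3 (0.0599) was left out. Without control 1 none of the 11 was called and their median was -0.51.

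Pmp2, the myelin fatty acid carrier, was singled out after its values were seen. It did not pass the filter on low counts and had 3, 7, 3 and 4 counts in knockouts, against 72, 9 and 21 counts in controls.

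Of 7 tested myelin lipid enzymes, 1 rose and none fell. The riser, Sgms1, makes sphingomyelin in most cells; it rose by 0.50 (SE 0.0933, adjusted p = 0.0121) and by 0.49 without control 1 (adjusted p = 0.0453). Ugt8a, which makes the galactolipid of myelin, was singled out after its values were seen. It read 0.544, 0.381, 0.637 and 0.363 CPM in knockouts, against 4.14, 0.805 and 0.850 CPM in controls, again highest in control 1.

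Of 9 tested genes of the periaxonal membrane, Cajal bands, node and paranode, none passed edgeR's test with the scaling used. At an unadjusted p under 0.05, 6 of the 9 differed, with Dag1 higher in knockouts, where 31.8% of all genes differed. DESeq2 called 2, Drp2 lower (-1.16) and Dag1 higher (0.39). Drp2 read 4.93, 4.38, 4.58 and 4.80 CPM in knockouts, against 18.4, 6.17 and 7.03 CPM in controls (adjusted p = 0.0508, 0.0688 without control 1, 0.0354 without control 2 and 0.0470 with upper quartile scaling). Its groups did not overlap. Dag1, dystroglycan, which muscle fibres also make, averaged 374 CPM in knockouts and 287 CPM in controls (adjusted p = 0.0654). Ank3, a scaffold of the node that muscle also makes, averaged 152 CPM in knockouts and 131 CPM in controls (adjusted p = 0.308).

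Of 13 tested genes of Schwann cell transcription and axon signalling, 1 fell and 0 rose. Erbb3, the neuregulin receptor by which Schwann cells read signals of the axon, read 3.45, 2.36, 1.75 and 2.86 CPM in knockouts, against 4.54, 4.87 and 4.67 CPM in controls. The 3 controls lay close together, unlike those of the myelin genes, and no knockout reached them. Erbb3 fell by 0.85 log2 units (adjusted p = 0.0293, SE 0.208) and had a log2 fold change of -0.88 without control 1. The call ended there (adjusted p = 0.0723), without control 2 (0.0788), control 3 (0.0824), knockout 3 (0.0528) or knockout 4 (0.0541), and with replicate numbers blocked (0.0582).

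Of 9 tested genes of non-myelinating, immature and repair Schwann cells, 1 fell and 0 rose, and the median was 0.06. Ncam1, an adhesion protein of non-myelinating Schwann cells that muscle fibres also make after loss of their nerve, had 249, 181, 208 and 214 counts in knockouts, against 314, 301 and 336 counts in controls. Its controls were close together as well, and the groups did not overlap. It fell by 0.59 log2 units (adjusted p = 0.0144), and by 0.59 without control 1 (adjusted p = 0.0494), but was not called without control 3 (0.0594). Gfap and Olig1, which mark repair Schwann cells, had 0 counts in every knockout and 2 counts each over the controls, all in control 1. No difference was detectable at this depth.

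Genes of axons and neurons were nearly absent, and 2 of the 10 in the table passed the filter. The neurofilament genes Nefl, Nefm and Nefh had 1, 2 and 4 counts over the knockouts and 2, 7 and 3 counts over the controls. Uchl1, a ubiquitin hydrolase abundant in neurons, had 30, 21, 11 and 20 counts in knockouts, against 95, 76 and 72 counts in controls. Its log2 fold change was -2.001 (SE 0.261, adjusted p = 0.00419), and it fell by 1.86 without control 1 (adjusted p = 0.0161). In CPM control 1 was at 3.82, control 2 at 2.91 and control 3 at 2.78. Which cells the Uchl1 transcripts came from was not tested. Stmn2, a neuronal gene of growing axons, was the other one tested (log2 fold change -0.74, adjusted p = 0.105). Control 1 was its lowest control, at 1.41 CPM, inside the range of the knockouts (0.761 to 1.57 CPM). Without control 1 the log2 fold change of Stmn2 was -0.94 (adjusted p = 0.0816).

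Genes of the perineurium and endoneurium, the sheath and connective tissue of the nerve, held more calls. Of 10 tested, 5 fell and 0 rose, with a median of -0.96, where 8.23% of all genes fell. Cldn1, the tight junction protein of perineurial cells, read 1.05, 2.09, 1.75 and 1.89 CPM in knockouts, against 6.47, 4.48 and 4.71 CPM in controls. It fell by 1.62 (SE 0.234, adjusted p = 0.00592), and by 1.45 without control 1 (adjusted p = 0.0222). Itgb4, an integrin of the perineurium and of Schwann cells, read 2.39, 3.46, 3.43 and 4.03 CPM in knockouts, against 9.49, 5.33 and 8.04 CPM in controls. Its log2 fold change was -1.20 (SE 0.227, adjusted p = 0.0127), and it fell by 1.01 without control 1 (adjusted p = 0.0468). Osr2 fell by 1.35 log2 units (adjusted p = 0.0215) and Moxd1 by 1.58 (0.0236), and every knockout lay below every control in both. Without control 1 their log2 fold changes were about as large, at -1.32 and -1.48, but did not pass (0.0685 and 0.0796), so that 2 genes of the list were called in that fit. Without control 2 the count was 3, and Moxd1 was not called (0.0571). Without control 3 it was 2, and neither Osr2 (0.0772) nor Moxd1 (0.0617) was called.

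Markers of the other cell types in muscle were read for the members that those cells share. Of 10 fibroblast markers 4 fell, with Lum at -1.46 (adjusted p = 0.00641), Mfap5 at -1.20 (0.00723), Col3a1 at -2.07 (0.0379) and Col1a1 at -2.10 (0.0430). Without control 1 the calls were those of Lum and Mfap5, while Col3a1 had a log2 fold change of -2.26 (0.0664) and Col1a1 one of -2.38 (0.0591). Col1a1 read 98.1 CPM and Col3a1 204 CPM in control 3, their highest library, and without it their log2 fold changes were -1.03 (adjusted p = 0.171) and -1.25 (adjusted p = 0.145). Neither collagen was called without knockout 2, 3 or 4 (0.0629 to 0.103). The summed fibroblast markers ran from 252 to 404 CPM in knockouts and from 359 to 769 CPM in controls, where control 3 and not control 1 was the highest. Of 7 adipocyte markers 2 fell, Fabp4 and Retn, at -0.54 and -1.12 (adjusted p = 0.0340 and 0.0456). Their sum ran from 773 to 1353 CPM in knockouts and from 1320 to 1492 CPM in controls, most of it Car3, which muscle fibres also make. Without control 1 Fabp4 kept its size at -0.55 but was not called (0.0860), and Retn was at -0.73 (0.158). Of the 7 markers 5 were highest in control 1, and Fabp4 was highest in control 2. Fabp4 also lost its call without any other library but knockout 1 (0.0558 to 0.103), and Retn without any but control 2 (0.0649 to 0.0962). Their part in the values of Pmp22 and S100b was not tested.

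Of 8 endothelial markers 2 fell, Tie1 by 0.47 and Egfl7 by 0.59 (adjusted p = 0.0162 and 0.0172). The log2 fold change of Tie1 stayed between -0.49 and -0.46 without control 1, 2 or 3 but did not pass (0.0543, 0.0518 and 0.0514), and Egfl7 was not called without control 3 (-0.47, 0.0667). Their sum ran from 190 to 211 CPM in knockouts and from 239 to 283 CPM in controls. Of 8 macrophage markers 3 fell, Csf1r by 0.94, Lyz2 by 1.14 and Cd68 by 1.94 (adjusted p = 0.00452, 0.0237 and 0.0270), and 2 were called without control 1. Csf1r kept its call there (0.0186), while Lyz2 did not (0.0772); Lyz2 and Cd68 were also not called without control 3 (0.0831 and 0.0630), knockout 3 (0.0644 and 0.0637) or knockout 4 (0.0581 and 0.0654), nor Cd68 without control 2 (0.0867). The summed markers ran from 34.9 to 54.9 CPM in knockouts and from 51.7 to 84.1 CPM in controls. Of 8 satellite cell markers none passed, with 1 at an unadjusted p under 0.05 and none by DESeq2. Their sums were 67.2 to 74.1 CPM in knockouts and 62.9 to 67.1 CPM in controls. Most of each sum was Cdh15 and Sdc4, which averaged 30.7 and 21.4 CPM in knockouts, against 25.2 and 17.5 CPM in controls. Of the 8 markers, 6 had a negative log2 fold change, and the median was -0.17. Of 8 immediate early genes, relatives of Egr2 by their response to stimuli, none passed, although 4 had an unadjusted p under 0.05 and DESeq2 called 1. Their median was 0.50, opposite in sign to the log2 fold change of Egr2. Of the 8, 2 had the sign of Egr2, namely Egr3 at -0.24 and Atf3 at -1.86, named after their values were seen. The part of macrophages and of stimulation in the values of Egr2 was not tested.

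**Figure D4:**
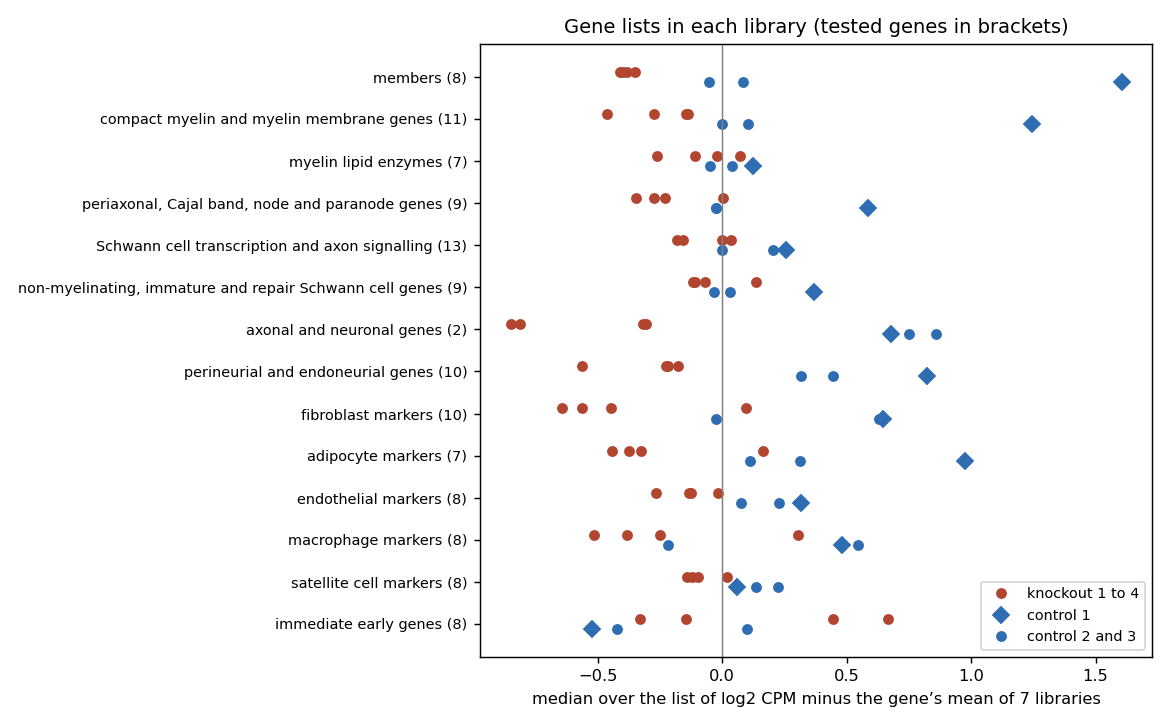
For each gene list (rows, number of tested genes in brackets), the median over its genes of log2 CPM minus the gene's own mean of 7 libraries (horizontal axis), 1 point per library: knockouts red, controls blue, control 1 a diamond. Control 1 stands at 1.61 for the 8 members and 1.24 for compact myelin, against 0.06 for satellite cell markers and -0.52 for immediate early genes.

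The plot of list medians puts control 1 at 1.61 for the 8 members, against -0.05 in control 2 and 0.09 in control 3. The 4 knockouts lay between -0.41 and -0.35 in the members. In the perineurial and endoneurial list the knockouts lay between -0.56 and -0.18, against 0.82, 0.32 and 0.44 in control 1 to 3. In both lists every control lay above every knockout. The same held for compact myelin, axonal and neuronal genes, endothelial markers and satellite cell markers, but not for the other lists.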

How the data were processed

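RNA was sequenced from 7 libraries of immobilized gastrocnemius. Per the series' design text and the submitters' processing notes, the authors mapped reads to mm10 with STAR 2.7.10a and quantified genes with RSEM 1.2.28. Neither the annotation nor the strand of the protocol is named. The deposited table holds the authors' expected counts per gene symbol, 7.48% to 7.74% of them not whole in each library, and they were rounded. Of its symbols, 24 had been turned into dates by a spreadsheet and were not named.

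edgeR 4.0.16 in R 4.3.3 tested knockout against control (filterByExpr, TMM, quasi-likelihood F test), with Benjamini-Hochberg adjustment over all 13409 tested genes. Calls needed an adjusted p below 0.05. Each SE was obtained by dividing the size of the log2 fold change by the root of F. Every adjusted p is from this test unless DESeq2 1.42.0 is named. Log2 CPM used a prior count of 2. Positions and exon lengths come from GENCODE M21 (GRCm38) and promoters from RefSeq. Counts of this comparison were also simulated over 13246 genes. Calls were made for 22.4% of 67 genes changed 1.5-fold, 66.7% of 66 changed 2-fold and 96.9% of 65 changed 4-fold. The simulation gave each gene the spread typical of its level and held no library that stood apart. Because control 1 stood apart in the members, these shares do not measure how often a change in them would be called. No pair of libraries agreed within counting noise.

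The members and lists were chosen with earlier results of these data known. Named genes are the members, up to 4 called genes per list by smallest p (where none was called, the 2 most abundant), Park7, and the 5 nearest profiles of Mbp, Prx, Mag and Pmp22. Some genes that the rule names are not reported here, although list counts include them. Pmp2, Ugt8a, Egr3 and Atf3, outside this rule, are named as chosen after their values were seen. Gfap, Olig1, Nefl, Nefm, Nefh, Stmn2 and Car3 were not picked by the rule either. Alternatives were other scalings and filters, DESeq2, a robust prior, a replicate block and leaving out each library.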

Additional observations from a re-analysis of the deposited data

Results flagged for a closer look

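In 2 of 48 named genes, 1 knockout library lay far from the other three, by the gap to its nearest neighbour over the range of the group; chance does this in about 1 of 20 groups. Fabp4, an adipocyte gene, had a ratio of 0.887, with 114, 79.0, 77.4 and 81.4 CPM in knockout 1 to 4. Cdh15, a satellite cell gene, had a ratio of 0.858, with 32.3, 22.6, 33.9 and 33.9 CPM in knockout 1 to 4. No member was among them, and the 3 controls were too few for this measure.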

How the results depend on the processing

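No log2 fold change of a gene named by the rule changed sign under any alternative run. Egr3, which the rule does not name, went from -0.24 to 0.18 without control 1. For the members, 109 of the alternative values kept their side of the threshold, 6 lost the call and 5 gained it. With DESeq2 3 members were called lower (Pmp22, S100b at -1.59 and Egr2 at -1.17). DESeq2 called 2298 of 21455 genes in all, against 1998 of 13409 in the edgeR fit used. In either direction it called 4 genes of compact myelin, 2 lipid enzymes, 2 periaxonal genes and 1 immediate early gene. With a robust prior 0 members were called (Pmp22 at -1.39), 1 compact myelin gene and 2 fibroblast markers. Upper quartile scaling called 1 periaxonal gene and 1 satellite cell marker, and testing with no filter called 1 adipocyte marker. An earlier form of the quasi-likelihood fit, chosen after seeing the data, called 1 compact myelin gene. The cause of these changes was not tested.

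Same-numbered knockout and control libraries deviated together only weakly (correlations 0.0945, 0.134 and 0.0854), so the numbers were not taken as pairs, although each library correlated best with its own number. With a replicate block 1273 genes were called in all, 0 members (Pmp22 at -1.12), 0 genes of transcription and axon signalling, 2 perineurial genes, 2 fibroblast markers, and 1 each of the adipocyte, endothelial and macrophage markers.

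Leaving out 1 library at a time gave 793 (without control 3) to 2057 (without knockout 2) calls in all. It gave 0 to 3 members, 0 to 3 compact myelin genes, 1 to 2 lipid enzymes, 0 to 2 periaxonal genes, 0 to 2 of transcription, 0 to 2 of non-myelinating cells, 2 to 5 perineurial, 2 to 5 fibroblast, 0 to 2 adipocyte, 0 to 3 endothelial, 1 to 4 macrophage, 0 to 1 satellite cell and 0 to 1 immediate early genes. Log2 fold changes lay between -1.69 and -0.60 for Pmp22, -1.65 and -0.42 for Prx, -1.94 and -0.70 for S100b, and -1.50 and -0.70 for Egr2. In each member the value nearest 0 came without control 1. Mag and S100b had as few as 7 counts in a library, so their levels are the least precise.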

Other observations

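Ratios between members within a library do not depend on its depth. Pmp22 over Prx was 3.70, 3.58, 3.66 and 3.01 in knockout 1 to 4, against 3.49, 4.06 and 3.87 in control 1 to 3, with control 1 inside the range of the knockouts. Pmp22 over Sox10 was 18.0, 16.3, 19.2 and 20.7 in knockouts, against 37.0, 22.5 and 28.6 in controls, with every control above every knockout. The groups overlapped for Prx over Sox10 (5.55 in control 2, 6.86 in knockout 4) and Mbp over Sox10 (9.39 in control 2, 10.7 in knockout 1). Mag over Sox10 overlapped too (0.310 in control 3, 0.531 in knockout 1). Sox10 had as few as 22 counts in a library, so ratios over it are imprecise. These ratios were chosen after the values were seen and were not tested.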
